A study of Homo sapiens with 12 samples.

Results

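The genes described here encode the machinery that degrades messenger RNA, in 5 machines: the CCR4-NOT deadenylase with 11 genes, 3 other deadenylase genes, the RNA exosome with 11 genes, decapping and 5′ to 3′ decay with 4 genes, and nonsense-mediated decay with 8 genes. Earlier results of these data were known when the 37 genes were chosen, so their shares set against all genes below are descriptive. These genes were picked by name as known members of the machines. For each, the counted stretch with the highest total over all libraries was taken among its annotated transcripts, and 37 of 37 were counted and passed the low-count filter, out of 15831 genes tested. The cell line THP-1, derived from an acute myeloid leukaemia with the MLL-AF9 fusion, was exposed to AZ5576, THZ531, YKL5124 or the vehicle DMSO for 2 hours, with 3 libraries per treatment and 1000000 cells each. All libraries, those of DMSO included, came from cells given 1 mM 4-thiouridine in the closing 10 minutes, and 5% Drosophila S2 material was added to the RNA. The known targets of the inhibitors are kinases that act on RNA polymerase II, namely CDK9 for AZ5576, the pair CDK12 and CDK13 for THZ531, and CDK7 for YKL5124. No dose was given in the labels. Nor did they say that the 3 libraries of a treatment were grown as separate cultures, so a p-value here reflects only library to library spread, possibly technical. The deposited columns named UT were taken as the DMSO libraries, since the labels list DMSO for the samples that no other column names. Comparisons between inhibitors do not rest on that step.

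Most mRNAs are degraded after their poly(A) tail has been shortened, chiefly by CCR4-NOT after an initial trimming by PAN2 and PAN3. The body of the RNA is then removed either from the 5′ end, once DCP2 has taken off the cap and XRN1 can enter, or from the 3′ end by the exosome. Nonsense-mediated decay is a surveillance route in which UPF1, phosphorylated by the kinase SMG1, marks mRNAs with a premature stop codon for cleavage by SMG6 or for deadenylation and decapping through SMG5 and its partners.

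Each library was a QuantSeq 3′ end library, in which a read marks the end of a polyadenylated RNA. The values are total read counts, so they measure total levels at 2 hours and do not single out the RNA made during labelling. Depth over 1 stretch per gene was 5048321 to 12743576 human counts per library, the lowest in AZ5576 replicate 2. Levels below are counts scaled to 1000000 per library (CPM) after TMM scaling, which sets each change relative to the middle of all human genes. Scaled to the fly spike-in, the median gene shifted by -0.17 (log2) under AZ5576, by -0.37 under THZ531 and by -0.07 under YKL5124 against DMSO, and by -0.12, -0.29 and -0.02 with library size alone. Human counts per fly count ran from 28.1 to 35.3 in DMSO libraries and from 26.8 to 31.5 in AZ5576 libraries. They ran from 29.2 to 31.4 in THZ531 libraries and from 28.6 to 31.4 in YKL5124 libraries. The groups overlapped, so values with the fly scaling are uncertain. The genes higher than DMSO made up 44.7% of calls under AZ5576, 48% under THZ531 and 34.9% under YKL5124 after TMM, but 10.3%, 13.2% and 21.1% with the fly scaling. Of 10 monocytic markers 9 were counted well enough to test, whereas CD14 had 16 counts in all. Of 9 markers of other cell types 3 were tested, among them PECAM1 at 197 to 237 CPM, and CD3E and HBB were at 0 counts in every library. In bulk RNA, fewer cells of a type and less RNA per cell cannot be told apart.

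Of the 37 genes, the nonsense-mediated decay gene SMG9 had the largest fall under each inhibitor, ahead of SMG8 under AZ5576, of the exosome subunit EXOSC4 and then SMG6 under THZ531, and of SMG5 under YKL5124, and CNOT4 had the largest rise on the stretch counted. Under AZ5576, 15 of 37 genes fell, against 23.1% of all genes tested, and 4 rose, against 18.6% (41.7% in either direction). Under THZ531, 17 fell, against 32.9% of all genes tested, and 7 rose, against 30.4% (63.4% in either direction). Under YKL5124, 10 fell, against 13.5%, and 1 rose, against 7.25% (20.8% in either direction). A call is an adjusted p under 0.05 in edgeR's quasi-likelihood test, adjusted over all genes tested. The median log2 fold change of the 37 genes was -0.06 under AZ5576, -0.19 under THZ531 and -0.09 under YKL5124, while that of all genes tested was 0.01, -0.0024 and -0.0044. Falls of at least 2-fold were called for 2 genes under AZ5576 (background 8.15%), 5 under THZ531 (17.5%) and 1 under YKL5124 (2.45%). These comparisons share the DMSO libraries. Without AZ5576 replicate 1, 2 rather than 4 genes rose under AZ5576, and without THZ531 replicate 3, 4 rather than 7 rose under THZ531.

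**Figure D1:**
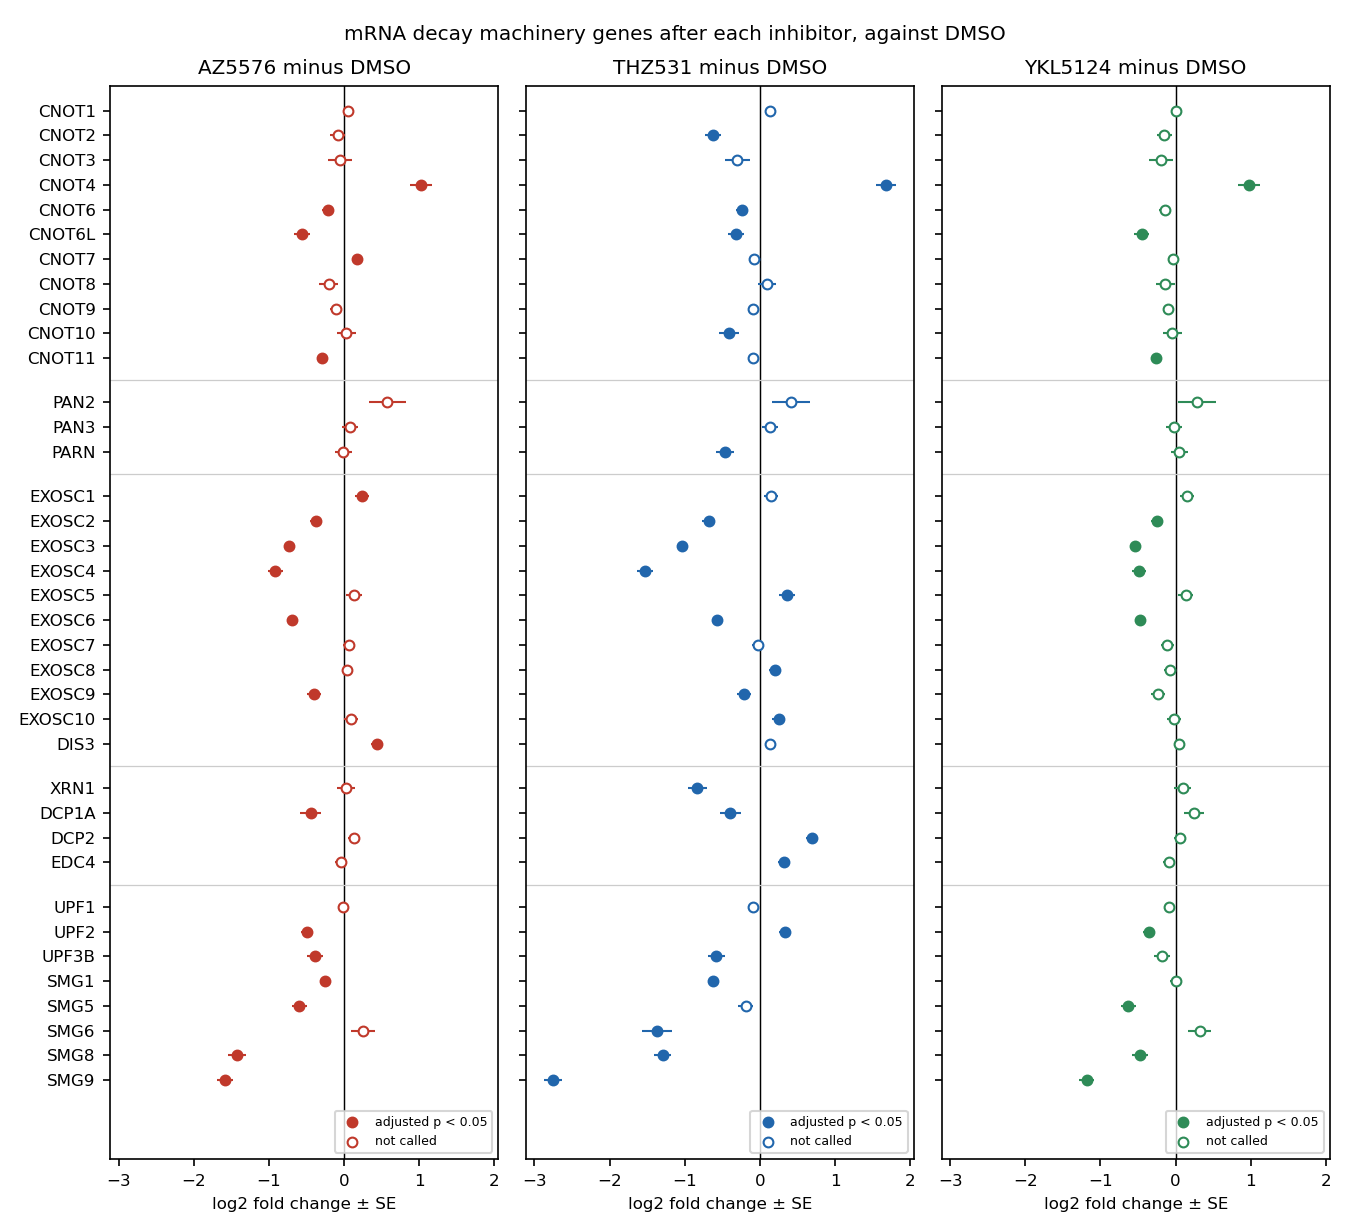
Log2 fold change (x axis) with its standard error (bars) of each of the 37 genes (rows, grouped by machine from CCR4-NOT at the top to nonsense-mediated decay at the bottom) for AZ5576, THZ531 and YKL5124 against DMSO, 3 libraries per group. Filled points passed an adjusted p of 0.05 in edgeR's quasi-likelihood test; SMG9 lies farthest to the left in each panel, at -1.58, -2.75 and -1.18, and CNOT4 farthest to the right.

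The transcript ends that were counted matter for what follows, because a gene can have several. The last 30 bases of 6 ends are shown, from GENCODE v29 transcripts on GRCh38: the end of the gene with the largest fall, the paired upstream and distal ends of CNOT4 and UPF2, which moved in opposite directions under THZ531, and an upstream end of DCP2 that rose there. Capitals mark AATAAA or ATTAAA, the usual polyadenylation signals, where the window holds one, a closing run of A in the upstream CNOT4 end, and every A in the upstream UPF2 end.
SMG9, 3′ UTR end, chr19:43727992-43728021, minus strand: ttgcaAATAAAtgagccaatacatactctt
CNOT4, distal end, chr7:135361795-135361824, minus strand: ttaAATAAAacagaaaacttgatggtgaca
CNOT4, upstream end, chr7:135384290-135384319, minus strand: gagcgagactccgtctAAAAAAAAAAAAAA
UPF2, distal end, chr10:11920022-11920051, minus strand: gccgatgctgcAATAAAgtgttgtaattta
UPF2, upstream end, chr10:12035059-12035088, minus strand: gcAAgAAgAAgAAgcAgctgctcAgAtgAA
DCP2, upstream end, chr5:112984622-112984651, plus strand: ctaaaaacctgATTAAAatgccttttgcta

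Of 11685 coding genes with such a window, 66.4% held AATAAA or ATTAAA on the transcript strand, and the median number of A was 12. Neither signal lay in the upstream windows of CNOT4, with 17 A of which 14 close the window, or UPF2, with 13 A. A count of at least 17 A was found in 9.24% of windows. These letters describe the annotated ends and do not show where priming took place.

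Of the 8 nonsense-mediated decay genes, 6 fell and 0 rose under AZ5576, 5 fell and 1 rose under THZ531, and 4 fell and 0 rose under YKL5124, with median log2 fold changes of -0.44, -0.60 and -0.27. The falls made up 75% of the 8 under AZ5576, against 23.1% of all genes tested, 62.5% under THZ531, against 32.9%, and 50.0% under YKL5124, against 13.5%. The rises stood against 18.6%, 30.4% and 7.25% of all genes. Beside the counts of 0, DESeq2 also called 0 rises under AZ5576 and YKL5124, and at an unadjusted p under 0.05 edgeR had 0 and 1. SMG9 and SMG8 bind and regulate the SMG1 kinase. SMG9 (ENSG00000105771, chromosome 19, 43727992 to 43754990, minus strand), whose end is printed above, had 9.73, 12.5 and 11.6 CPM in AZ5576 libraries, 5.07, 4.73 and 4.91 CPM in THZ531 libraries and 13.1, 15.6 and 14.7 CPM in YKL5124 libraries, against 34.3, 33.2 and 31.6 CPM in DMSO libraries. The 4 groups did not overlap, with THZ531 lowest and DMSO highest. SMG9 fell 3.0-fold under AZ5576 (log2 fold change -1.58, SE 0.11, adjusted p = 5.08e-13), 6.74-fold under THZ531 (log2 fold change -2.75, SE 0.13, adjusted p = 1.31e-17) and 2.27-fold under YKL5124 (log2 fold change -1.18, SE 0.10, adjusted p = 2.37e-10).

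SMG8 (ENSG00000167447, chromosome 17, 59209400 to 59215247, plus strand), which joins SMG9 on the kinase, had 11.9, 14 and 12 CPM in AZ5576 libraries, 9.49, 14.9 and 15.8 CPM in THZ531 libraries and 24.2, 23 and 24.9 CPM in YKL5124 libraries, against 31.5, 34.7 and 33.7 CPM in DMSO libraries. AZ5576 and THZ531 libraries overlapped each other and lay below those of YKL5124, which lay below DMSO. The fall was 2.68-fold under AZ5576 (log2 fold change -1.42, SE 0.12, adjusted p = 5.29e-11), 2.45-fold under THZ531 (log2 fold change -1.29, SE 0.12, adjusted p = 9.53e-11) and 1.38-fold under YKL5124 (log2 fold change -0.47, SE 0.11, adjusted p = 0.00157). The last exon of SMG8 overlaps AC099850.2 on the same strand, so reads of the pair cannot be told apart.

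SMG6 (ENSG00000070366, chromosome 17, 2059839 to 2303771, minus strand), the endonuclease that cuts the target mRNA, had 9.25, 6.13 and 8.0 CPM in AZ5576 libraries, 3.12, 2.31 and 2.56 CPM in THZ531 libraries and 9.44, 8.19 and 8.14 CPM in YKL5124 libraries, against 7.10, 5.70 and 7.53 CPM in DMSO libraries. Only the THZ531 libraries stood below the rest, and those of AZ5576 and DMSO overlapped. SMG6 fell 2.58-fold under THZ531 (log2 fold change -1.36, SE 0.20, adjusted p = 8.66e-07), while the log2 fold changes of 0.25 under AZ5576 and 0.32 under YKL5124 were not called. SMG5, the adaptor that binds phosphorylated UPF1, had 17.1, 20.2 and 18.4 CPM in AZ5576 libraries, 23, 25.2 and 24.3 CPM in THZ531 libraries and 20.3, 16.7 and 17 CPM in YKL5124 libraries, against 27, 29.7 and 26.4 CPM in DMSO libraries. The inhibitor libraries lay below DMSO, those of THZ531 closest to it. SMG5 fell under AZ5576 (log2 fold change -0.60, SE 0.10, adjusted p = 1.64e-05) and YKL5124 (log2 fold change -0.63, SE 0.10, adjusted p = 1.57e-05), and its change of -0.19 under THZ531 had an adjusted p of 0.0856. That THZ531 change was called under 5 of 13 other settings, among them every stretch tested on its own (-0.24).

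SMG1, the kinase, had 50.2, 49.4 and 55.2 CPM in AZ5576 libraries, 38.7, 40.2 and 41.7 CPM in THZ531 libraries and 66.1, 59.9 and 60.2 CPM in YKL5124 libraries, against 64.7, 58.7 and 61.7 CPM in DMSO libraries. THZ531 libraries were lowest, AZ5576 libraries lay between, and YKL5124 and DMSO overlapped. SMG1 fell under THZ531 (log2 fold change -0.62, SE 0.08, adjusted p = 4.5e-08) and AZ5576 (log2 fold change -0.25, SE 0.07, adjusted p = 0.00734), and was at 0.0034 under YKL5124. Its pseudogenes SMG1P1 to SMG1P7 can share reads with it, so these values are uncertain. UPF1, the helicase at the centre of the pathway, had 139, 143 and 146 CPM in AZ5576 libraries, 137, 132 and 137 CPM in THZ531 libraries and 139.7, 127 and 141 CPM in YKL5124 libraries, against 148, 145 and 138 CPM in DMSO libraries. Its levels lay close together, with log2 fold changes of -0.01, -0.09 and -0.08 under AZ5576, THZ531 and YKL5124, none of them called. The THZ531 change of UPF1 was called under 3 of 13 other settings.

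UPF3B, which links UPF2 to the exon junction complex, fell under THZ531 (log2 fold change -0.58, SE 0.11, adjusted p = 4.34e-05) and AZ5576 (log2 fold change -0.38, SE 0.11, adjusted p = 0.00499), and its change under YKL5124 was -0.18. With its most distal coding end counted instead, UPF3B was called lower under all inhibitors. The changes there were -0.70 under THZ531, -0.57 under AZ5576 and -0.35 under YKL5124 (edgeR adjusted p = 0.0233 for YKL5124). UPF2 (ENSG00000151461, chromosome 10, 11920022 to 12043170, minus strand), which bridges UPF1 and UPF3B, gave a value that depended on the end counted. The stretch with the most reads belongs to a non-coding transcript that ends in a coding exon 8111 bases from the gene's start, and it had 74.7, 83.5 and 73.9 CPM in AZ5576 libraries, 140.1, 127 and 142 CPM in THZ531 libraries and 81.4, 95.2 and 77.4 CPM in YKL5124 libraries, against 107, 116 and 103 CPM in DMSO libraries. THZ531 libraries were above DMSO, and AZ5576 and YKL5124 libraries below. On that stretch UPF2 rose under THZ531 (log2 fold change 0.33, SE 0.07, adjusted p = 0.0003), though the call was lost with library size alone (0.041) and with the fly scaling it turned to -0.028, and fell under AZ5576 (log2 fold change -0.50, SE 0.08, adjusted p = 5.77e-06) and YKL5124 (log2 fold change -0.36, SE 0.08, adjusted p = 0.000783). At the distal 3′ UTR end, 115037 bases downstream, it had 14.2, 17 and 16.7 CPM in AZ5576 libraries, 4.29, 3.96 and 5.12 CPM in THZ531 libraries and 19.6, 16.7 and 18 CPM in YKL5124 libraries, against 18.6, 21.3 and 18.8 CPM in DMSO libraries. There the THZ531 libraries were the lowest, and UPF2 fell by 2.09 (log2, SE 0.14, adjusted p = 2.54e-15) with the most distal coding end of each gene counted instead, an alternative chosen after seeing the data. The same alternative gave -0.30 under AZ5576 and -0.10 under YKL5124.

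**Figure D2:**
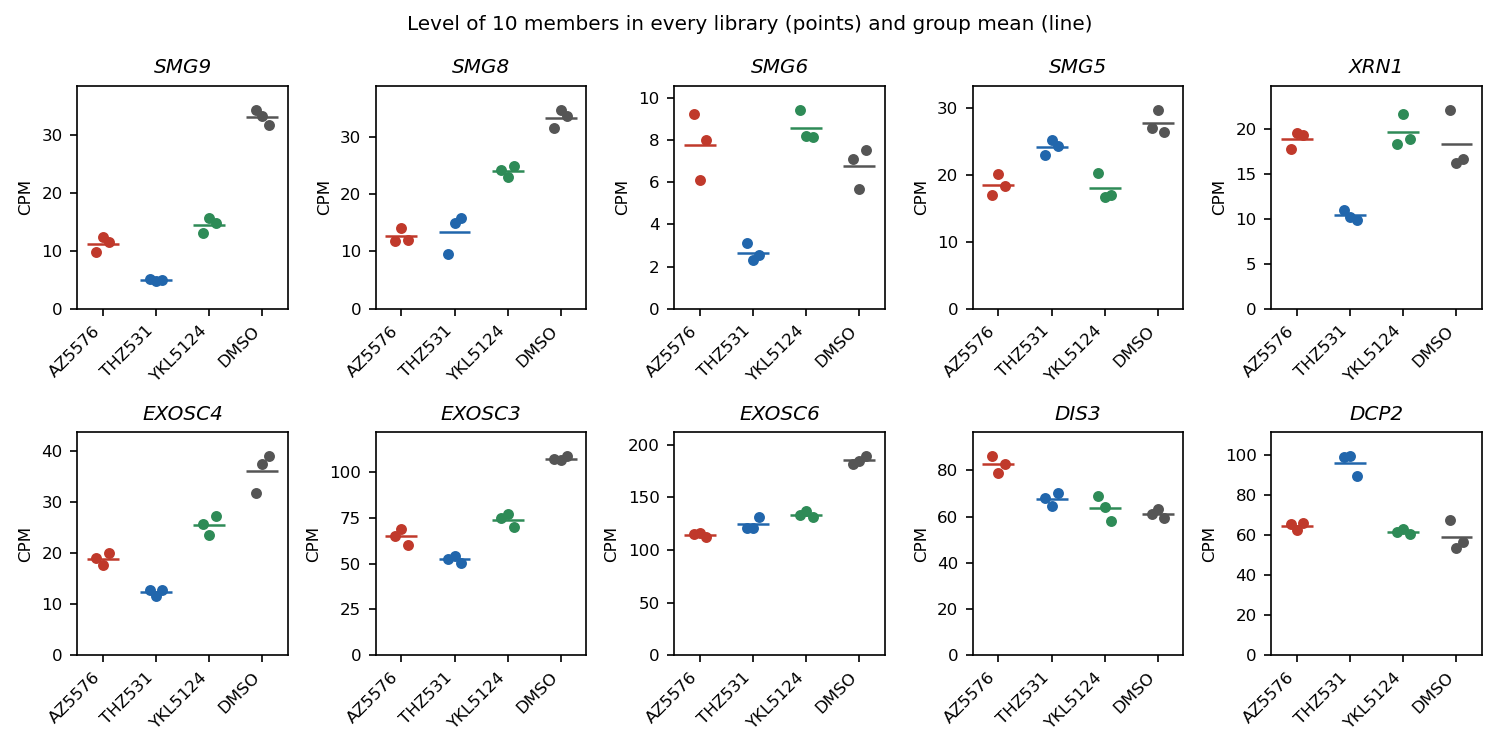
CPM after TMM scaling (y axis, from 0) of 10 of the genes in each of the 12 libraries (points, 3 per treatment) with the group mean (line), in the order AZ5576, THZ531, YKL5124 and DMSO. SMG9 runs between 4.73 and 5.07 CPM under THZ531 and between 31.6 and 34.3 CPM under DMSO, whereas DCP2 is highest under THZ531 and DIS3 under AZ5576.

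Of the 11 exosome genes, 5 fell and 2 rose under AZ5576, 5 fell and 3 rose under THZ531, and 4 fell and 0 rose under YKL5124, with medians of 0.04, -0.02 and -0.11. Falls made up 45.5% of the 11 under AZ5576 and 45.5% under THZ531, against 23.1% and 32.9% of all genes tested, and 36.4% under YKL5124, against 13.5%. Rises made up 18.2% under AZ5576 and 27.3% under THZ531, near the 18.6% and 30.4% of all genes, and 0% under YKL5124, against 7.25%. Under YKL5124, 0 rises were also found at an unadjusted p under 0.05 in edgeR and in DESeq2. In the cap that binds RNA at the entrance of the barrel, EXOSC3 (ENSG00000107371, chromosome 9, 37766978 to 37801437, minus strand) had 65.3, 69.2 and 60.5 CPM in AZ5576 libraries, 52.5, 54.4 and 50.3 CPM in THZ531 libraries and 75, 77 and 70.1 CPM in YKL5124 libraries, against 107, 106 and 109 CPM in DMSO libraries. The 4 groups did not overlap, and the order was THZ531, AZ5576, YKL5124 and DMSO from low to high. EXOSC3 fell 2.05-fold under THZ531 (log2 fold change -1.04, SE 0.07, adjusted p = 1.34e-13), 1.66-fold under AZ5576 (log2 fold change -0.74, SE 0.07, adjusted p = 5.68e-10) and 1.45-fold under YKL5124 (log2 fold change -0.54, SE 0.07, adjusted p = 3.96e-07). The pseudogenes EXOSC3P1 and EXOSC3P2 can share its reads. The cap subunit EXOSC2 had log2 fold changes of -0.38 under AZ5576 and -0.68 under THZ531, both called, and -0.25 under YKL5124. The YKL5124 call was lost without YKL5124 replicate 1 (-0.23), YKL5124 replicate 3 (-0.24), DMSO replicate 1 (-0.21) or DMSO replicate 3 (-0.25), and also with upper quartile factors (-0.18), the fly scaling (-0.31) or DESeq2 (-0.22). The third cap subunit, EXOSC1, had 26.3, 23.1 and 26.7 CPM in AZ5576 libraries, 26.4, 22.7 and 23.6 CPM in THZ531 libraries and 23, 25.6 and 23.7 CPM in YKL5124 libraries, against 21.4, 22.6 and 21.5 CPM in DMSO libraries. It was called higher under AZ5576 (log2 fold change 0.24, SE 0.09, adjusted p = 0.0397), a call lost without AZ5576 replicate 1 (0.22), AZ5576 replicate 3 (0.20), DMSO replicate 1 (0.22) or DMSO replicate 3 (0.23). It was lost under 9 of 13 other settings as well, among them DESeq2 (0.25) and the fly scaling (0.053).

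Among the 6 genes of the ring, which forms the barrel and has no catalytic activity of its own in human cells, EXOSC4 had 19, 17.6 and 19.9 CPM in AZ5576 libraries, 12.9, 11.7 and 12.7 CPM in THZ531 libraries and 25.8, 23.5 and 27.3 CPM in YKL5124 libraries, against 31.7, 37.3 and 38.9 CPM in DMSO libraries. The 4 groups did not overlap, again with THZ531 lowest and DMSO highest. EXOSC4 fell 2.90-fold under THZ531 (log2 fold change -1.53, SE 0.11, adjusted p = 1.87e-13), 1.89-fold under AZ5576 (log2 fold change -0.92, SE 0.10, adjusted p = 7.66e-09) and 1.40-fold under YKL5124 (log2 fold change -0.49, SE 0.09, adjusted p = 0.000192). EXOSC6, a ring gene with 1 exon, fell under AZ5576 (log2 fold change -0.69, SE 0.06, adjusted p = 1.6e-10), THZ531 (log2 fold change -0.57, SE 0.06, adjusted p = 1.83e-09) and YKL5124 (log2 fold change -0.47, SE 0.06, adjusted p = 5.82e-07). Its groups of inhibitor libraries all lay below DMSO. EXOSC7 had log2 fold changes of 0.07, -0.02 and -0.11 under AZ5576, THZ531 and YKL5124, none called. EXOSC9 fell under AZ5576 (log2 fold change -0.40, SE 0.09, adjusted p = 0.000857), a call lost with the most distal coding end (-0.22). Its fall under THZ531 (log2 fold change -0.21, SE 0.09, adjusted p = 0.0449), where libraries overlapped DMSO, was lost without THZ531 replicate 1 (-0.19), THZ531 replicate 2 (-0.21), DMSO replicate 1 (-0.17) or DMSO replicate 2 (-0.18), and also with RLE size factors (-0.20), DESeq2 (-0.20), no low-count filter (-0.22) or all stretches summed (-0.019), and it turned to 0.23 at the most distal coding end.

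EXOSC5 and EXOSC8, also of the ring, went the other way under THZ531. EXOSC5 had 19.7, 18.2 and 19.1 CPM in AZ5576 libraries, 23.7, 18.9 and 24.7 CPM in THZ531 libraries and 17.8, 19.7 and 19.8 CPM in YKL5124 libraries, against 16.8, 17.5 and 18.2 CPM in DMSO libraries. Its THZ531 libraries were above those of DMSO (log2 fold change 0.36, SE 0.11, adjusted p = 0.00407), but the call was lost without THZ531 replicate 3 (0.25) or with library size alone (0.066). EXOSC8 had a log2 fold change of 0.20 under THZ531, a call lost without THZ531 replicate 1 (0.15), THZ531 replicate 3 (0.15), DMSO replicate 1 (0.20) or DMSO replicate 2 (0.18), and under 4 of 13 other settings. With the fly scaling the THZ531 changes of EXOSC5, EXOSC8 and EXOSC10 turned to -0.0075, -0.16 and -0.12, so the direction of these rises depends on the scaling. The last exons of EXOSC8 and EXOSC9 overlap SUPT20H and CCNA2 on the opposite strand.

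On the stretch counted, the nuclease genes of the exosome, DIS3 and EXOSC10, were not called lower under any inhibitor. Of 6 EXOSC10 stretches tested on their own, 1 was called lower under each inhibitor, and 1 was called higher under THZ531. The lower one, an intronic end 10391 bases upstream, changed by -0.93 under AZ5576, -0.49 under THZ531 and -0.91 under YKL5124 (log2). DIS3, the exonuclease and endonuclease at the bottom of the barrel, had 86, 78.7 and 82.9 CPM in AZ5576 libraries, 67.8, 64.6 and 70.3 CPM in THZ531 libraries and 69.1, 63.9 and 58.2 CPM in YKL5124 libraries, against 61.2, 63.2 and 59.6 CPM in DMSO libraries. AZ5576 libraries were above all others. DIS3 rose under AZ5576 (log2 fold change 0.44, SE 0.07, adjusted p = 1.49e-05), and its log2 fold changes of 0.14 under THZ531 and 0.05 under YKL5124 were not called. With the most distal coding end counted, the THZ531 change of 0.18 was called (edgeR adjusted p = 0.0315). Of 3 DIS3 stretches tested on their own, 2 were called higher under THZ531. With the fly scaling the AZ5576 change was 0.25 and was not called, and its last exon overlaps BORA on the opposite strand. EXOSC10, the nuclear 3′ exonuclease, had 54.1, 44.9 and 53.7 CPM in AZ5576 libraries, 54.5, 59.1 and 58.9 CPM in THZ531 libraries and 43.4, 45.9 and 53 CPM in YKL5124 libraries, against 47.3, 43.2 and 54.2 CPM in DMSO libraries. Only the THZ531 libraries stood above DMSO (log2 fold change 0.25, SE 0.09, adjusted p = 0.0156), a call lost without THZ531 replicate 2 (0.20), THZ531 replicate 3 (0.20), DMSO replicate 1 (0.24) or DMSO replicate 2 (0.18), and also with a stricter low-count filter (0.20), all stretches summed (0.21) or every stretch on its own (0.20).

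Of the 4 decapping and 5′ to 3′ decay genes, 1 fell and 0 rose under AZ5576, and 2 fell and 2 rose under THZ531. Under YKL5124 0 were called by edgeR, against 20.8% of all genes tested, with 0 at an unadjusted p under 0.05 and 0 in DESeq2. The 0 rises under AZ5576, against 18.6% of all genes tested, were also 0 by both. The fall under AZ5576 was 1 of 4, near the 23.1% of all genes tested that fell, and under THZ531, where all 4 were called, 63.4% of all genes were. XRN1 (ENSG00000114127, chromosome 3, 142306607 to 142448062, minus strand), the exonuclease that degrades decapped RNA from its 5′ end, had 17.8, 19.6 and 19.3 CPM in AZ5576 libraries, 11, 10.2 and 9.93 CPM in THZ531 libraries and 18.4, 21.7 and 18.9 CPM in YKL5124 libraries, against 22.2, 16.2 and 16.7 CPM in DMSO libraries. THZ531 libraries lay below all others, which overlapped. XRN1 fell 1.78-fold under THZ531 (log2 fold change -0.83, SE 0.13, adjusted p = 1.78e-06), with 0.02 under AZ5576 and 0.09 under YKL5124. Of 11 XRN1 stretches tested on their own, 4 were called lower and 2 higher under THZ531. Under AZ5576 1 was higher and 0 lower, and under YKL5124 2 were higher and 0 lower. An intronic end 111234 bases upstream rose by 0.99 (log2) under THZ531 and by 0.997 under YKL5124.

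DCP2 (ENSG00000172795, chromosome 5, 112976702 to 113020970, plus strand), the enzyme that removes the cap, had 65.5, 62.9 and 66.3 CPM in AZ5576 libraries, 99.2, 99.5 and 89.8 CPM in THZ531 libraries and 61.8, 63.1 and 60.6 CPM in YKL5124 libraries, against 67.5, 53.8 and 56.8 CPM in DMSO libraries. THZ531 libraries lay above all others. DCP2 rose 1.61-fold under THZ531 (log2 fold change 0.69, SE 0.08, adjusted p = 4.56e-09), while AZ5576 and YKL5124 libraries overlapped DMSO, where replicate 1 was the highest. Without DMSO replicate 1 the AZ5576 change was 0.23 and passed the threshold, against 0.13 with all libraries. DCP1A, the activator of DCP2, had 8.93, 9.10 and 12.2 CPM in AZ5576 libraries, 10.5, 9.80 and 11.4 CPM in THZ531 libraries and 14.8, 18.9 and 15.6 CPM in YKL5124 libraries, against 14.1, 15.6 and 12.2 CPM in DMSO libraries. AZ5576 and THZ531 libraries lay below YKL5124 and did not exceed the lowest DMSO library. DCP1A fell under AZ5576 (log2 fold change -0.44, SE 0.14, adjusted p = 0.0107), a call lost without AZ5576 replicate 1 (-0.33) or DMSO replicate 2 (-0.37). It fell under THZ531 (log2 fold change -0.39, SE 0.14, adjusted p = 0.0156), a call lost without THZ531 replicate 2 (-0.36) or DMSO replicate 2 (-0.31) or with all stretches summed (-0.33). EDC4, the scaffold of the decapping complex, had 54.7, 62.1 and 53.1 CPM in AZ5576 libraries, 74.1, 73.1 and 68.7 CPM in THZ531 libraries and 57.7, 51.4 and 53.6 CPM in YKL5124 libraries, against 58.3, 59.5 and 55.2 CPM in DMSO libraries. Its THZ531 libraries lay above the rest (log2 fold change 0.32, SE 0.07, adjusted p = 0.000432), but the call was lost with library size alone (0.029), with the fly scaling the change turned to -0.043, and its last exon overlaps AC040162.3 on the same strand.

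Of the 11 CCR4-NOT genes, 6 were not called under AZ5576, 6 under THZ531 and 8 under YKL5124. Of the 11, 3 fell and 2 rose under AZ5576, 4 fell and 1 rose under THZ531, and 2 fell and 1 rose under YKL5124, with medians of -0.08, -0.10 and -0.14. The falls were 27.3%, 36.4% and 18.2% of the 11 under AZ5576, THZ531 and YKL5124, against 23.1%, 32.9% and 13.5% of all genes tested. The rises were 18.2%, 9.09% and 9.09%, against 18.6%, 30.4% and 7.25%. Of the nucleases, CNOT6L, a CCR4-type exonuclease, had 24.2, 29.3 and 25.2 CPM in AZ5576 libraries, 31.8, 35.1 and 24.3 CPM in THZ531 libraries and 27, 28.4 and 27.7 CPM in YKL5124 libraries, against 39.4, 33.3 and 40.6 CPM in DMSO libraries. AZ5576 and YKL5124 libraries lay below DMSO, and THZ531 libraries overlapped it. CNOT6L fell under AZ5576 (log2 fold change -0.56, SE 0.11, adjusted p = 9.84e-05) and YKL5124 (log2 fold change -0.45, SE 0.10, adjusted p = 0.00173), and under THZ531 (log2 fold change -0.32, SE 0.10, adjusted p = 0.00913) the call was lost without THZ531 replicate 3 (-0.20) or DMSO replicate 3 (-0.26) or with all stretches summed (-0.19). Its paralogue CNOT6 had 53.7, 64.5 and 53.2 CPM in AZ5576 libraries, 58, 55.4 and 53.1 CPM in THZ531 libraries and 58, 59.9 and 59.9 CPM in YKL5124 libraries, against 65.4, 72.5 and 59 CPM in DMSO libraries. The AZ5576 libraries overlapped DMSO and those of THZ531 lay below it. CNOT6 was called lower under THZ531 (log2 fold change -0.24, SE 0.08, adjusted p = 0.0114), a call lost without DMSO replicate 2 (-0.17). The AZ5576 call (log2 fold change -0.22, SE 0.08, adjusted p = 0.033) was lost without AZ5576 replicate 1 (-0.18), AZ5576 replicate 3 (-0.17), THZ531 replicate 2 (-0.21), DMSO replicate 1 (-0.22) or DMSO replicate 2 (-0.15), and also with upper quartile factors (-0.16), DESeq2 (-0.20), all stretches summed (-0.18) or only the 6 libraries compared (-0.22).

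The CAF1-type exonucleases moved little. CNOT7 had 167, 170.5 and 156 CPM in AZ5576 libraries, 128, 139 and 143 CPM in THZ531 libraries and 151, 138 and 138 CPM in YKL5124 libraries, against 147, 139.7 and 149 CPM in DMSO libraries. AZ5576 libraries were above DMSO (log2 fold change 0.18, SE 0.06, adjusted p = 0.029), a call lost without AZ5576 replicate 1 (0.16), AZ5576 replicate 2 (0.16), DMSO replicate 1 (0.18) or DMSO replicate 2 (0.15), and under 5 of 13 other settings. The change was -0.019 with the fly scaling. CNOT8 had 16.4, 23.5 and 14.5 CPM in AZ5576 libraries, 18.2, 21.5 and 24 CPM in THZ531 libraries and 17.2, 18.5 and 18.6 CPM in YKL5124 libraries, against 18.6, 19.6 and 21.7 CPM in DMSO libraries. Its log2 fold changes of -0.21, 0.10 and -0.14 under AZ5576, THZ531 and YKL5124 were not called. CNOT7 and CNOT6L have processed copies by name (CNOT7P1, CNOT7P2 and CNOT6LP1) that can share reads.

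Of the other subunits, CNOT11, which with CNOT10 forms a module on the scaffold CNOT1, had 245, 213 and 248 CPM in AZ5576 libraries, 258, 278 and 275 CPM in THZ531 libraries and 239.7, 243 and 239 CPM in YKL5124 libraries, against 286, 289 and 292 CPM in DMSO libraries. All inhibitor libraries lay below DMSO. CNOT11 fell under AZ5576 (log2 fold change -0.29, SE 0.06, adjusted p = 0.000316) and YKL5124 (log2 fold change -0.26, SE 0.06, adjusted p = 0.00174), and its change under THZ531 was -0.10. That THZ531 change was not called in the main fit but was under 4 of 13 other settings. CNOT2, of the module that CNOT3 completes, had 37.4, 32.8 and 35.2 CPM in AZ5576 libraries, 25.9, 22.6 and 24.7 CPM in THZ531 libraries and 33.5, 38.7 and 29.5 CPM in YKL5124 libraries, against 39.3, 41.6 and 32.1 CPM in DMSO libraries. THZ531 libraries lay below all others (log2 fold change -0.63, SE 0.11, adjusted p = 6.71e-06). CNOT10 had 13.6, 12.5 and 11.6 CPM in AZ5576 libraries, 9.62, 9.91 and 8.43 CPM in THZ531 libraries and 11.3, 10.7 and 13.7 CPM in YKL5124 libraries, against 12.8, 11.1 and 12.9 CPM in DMSO libraries. Its THZ531 libraries were again the lowest (log2 fold change -0.41, SE 0.13, adjusted p = 0.00956). CNOT1, CNOT3 and CNOT9, an adaptor that binds regulators of decay, had changes between -0.30 and 0.14 under the 3 inhibitors, none of them called. The last exons of CNOT1 and CNOT3 overlap SETD6 and LENG1 on the opposite strand. With the most distal coding end counted, CNOT3 fell by 0.68 (log2, SE 0.21, adjusted p = 0.00386) and CNOT1 was at 0.17 (SE 0.06, adjusted p = 0.0163) under THZ531.

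The 3 other deadenylase genes had 1 call, the fall of PARN under THZ531, against 32.9% of all genes that fell there. On the stretch counted, 0 rose under any inhibitor in edgeR after TMM or in DESeq2, and at an unadjusted p under 0.05 edgeR had 1 rise, PAN2 under AZ5576. Of all genes tested, 18.6%, 30.4% and 7.25% rose under AZ5576, THZ531 and YKL5124, and 23.1% and 13.5% fell under AZ5576 and YKL5124. PARN, a poly(A)-specific ribonuclease of nuclear RNAs, had 19.5, 23.1 and 16.4 CPM in AZ5576 libraries, 14.2, 12.9 and 14.8 CPM in THZ531 libraries and 21.9, 20.6 and 17.8 CPM in YKL5124 libraries, against 18.6, 21.2 and 18.3 CPM in DMSO libraries. THZ531 libraries lay below all others, and PARN fell there (log2 fold change -0.47, SE 0.12, adjusted p = 0.00137), with -0.01 under AZ5576 and 0.05 under YKL5124. PAN2, the catalytic subunit of its complex, was at a low level, with 3.19, 3.76 and 2.75 CPM in AZ5576 libraries, 3.25, 3.08 and 2.14 CPM in THZ531 libraries and 3.27, 2.42 and 2.16 CPM in YKL5124 libraries, against 1.92, 2.28 and 2.12 CPM in DMSO libraries. AZ5576 libraries lay above DMSO, but the log2 fold change of 0.58 had an adjusted p of 0.059. That change was called with upper quartile factors (0.63), with all stretches summed (0.62) and at the most distal coding end (0.58). PAN3, its partner, had changes of 0.08, 0.14 and -0.01 under AZ5576, THZ531 and YKL5124, none called. The last exon of PAN2 overlaps CNPY2 on the same strand.

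CNOT4 (ENSG00000080802, chromosome 7, 135361795 to 135510127, minus strand), a ubiquitin ligase that binds the complex, showed opposite directions at its ends. The upstream end, which was the one with the most reads, lies in an intron of the longest transcript, and it had 13.4, 12.1 and 14.3 CPM in AZ5576 libraries, 20.9, 19.9 and 23 CPM in THZ531 libraries and 13.9, 13.2 and 12.3 CPM in YKL5124 libraries, against 8.51, 5.70 and 5.49 CPM in DMSO libraries. All inhibitor libraries lay above DMSO, and those of THZ531 were the highest. On it CNOT4 rose 3.21-fold under THZ531 (log2 fold change 1.68, SE 0.14, adjusted p = 8.67e-12), 2.03-fold under AZ5576 (log2 fold change 1.02, SE 0.15, adjusted p = 1.39e-06) and 1.97-fold under YKL5124 (log2 fold change 0.98, SE 0.14, adjusted p = 6.06e-06). The distal end, 22495 bases downstream, had 2.07, 2.77 and 2.83 CPM in AZ5576 libraries, 0.520, 0.440 and 0.641 CPM in THZ531 libraries and 4.11, 4.65 and 5.24 CPM in YKL5124 libraries, against 6.07, 6.17 and 5.89 CPM in DMSO libraries. At that end DMSO libraries were highest and THZ531 libraries, with 4, 4 and 6 reads, lowest. With the most distal coding end counted, CNOT4 fell by 3.43 (log2) under THZ531 (SE 0.29, adjusted p = 5.83e-13) and by 1.26 under AZ5576 (SE 0.20, adjusted p = 2.41e-06), and was at -0.34 under YKL5124 (SE 0.17, adjusted p = 0.146). Summed over all its stretches, CNOT4 was at -0.11 under AZ5576 and 0.19 under YKL5124, neither called. The pseudogene CNOT4P1 can share its reads.

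Upstream ends of CNOT7, SMG1 and DCP2 also rose under THZ531. An intronic end of CNOT7, 9629 bases upstream, had 1.99, 1.38 and 2.33 CPM in AZ5576 libraries, 7.15, 8.15 and 8.33 CPM in THZ531 libraries and 1.82, 1.40 and 1.08 CPM in YKL5124 libraries, against 1.78, 1.33 and 2.28 CPM in DMSO libraries. THZ531 libraries were above the other groups, which overlapped, and the end rose there (log2 fold change 2.06, SE 0.22, adjusted p = 1.44e-09, with every stretch tested on its own). In SMG1, an intronic end 71094 bases upstream had 0.239, 1.19 and 0.417 CPM in AZ5576 libraries, 2.08, 2.86 and 3.74 CPM in THZ531 libraries and 0.484, 0.465 and 0.166 CPM in YKL5124 libraries, against 0.740, 0.570 and 0.314 CPM in DMSO libraries. These are low levels, from 3 to 6 reads per AZ5576 library, 16 to 35 per THZ531 library, 2 to 5 per YKL5124 library and 4 to 10 per DMSO library. The end rose under THZ531 (log2 fold change 2.35, SE 0.41, adjusted p = 8.87e-06) while the distal end of SMG1 fell. In DCP2 the upstream end printed above, 36319 bases before the distal one, had 4.31, 4.15 and 3.25 CPM in AZ5576 libraries, 18.3, 16.3 and 15.7 CPM in THZ531 libraries and 4.96, 5.77 and 4.32 CPM in YKL5124 libraries, against 6.73, 7.41 and 5.89 CPM in DMSO libraries. It rose under THZ531 (log2 fold change 1.28, SE 0.14, adjusted p = 3.08e-09), as the distal end did, and fell under AZ5576 (log2 fold change -0.79, SE 0.18, adjusted p = 0.000901).

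**Figure D3:**
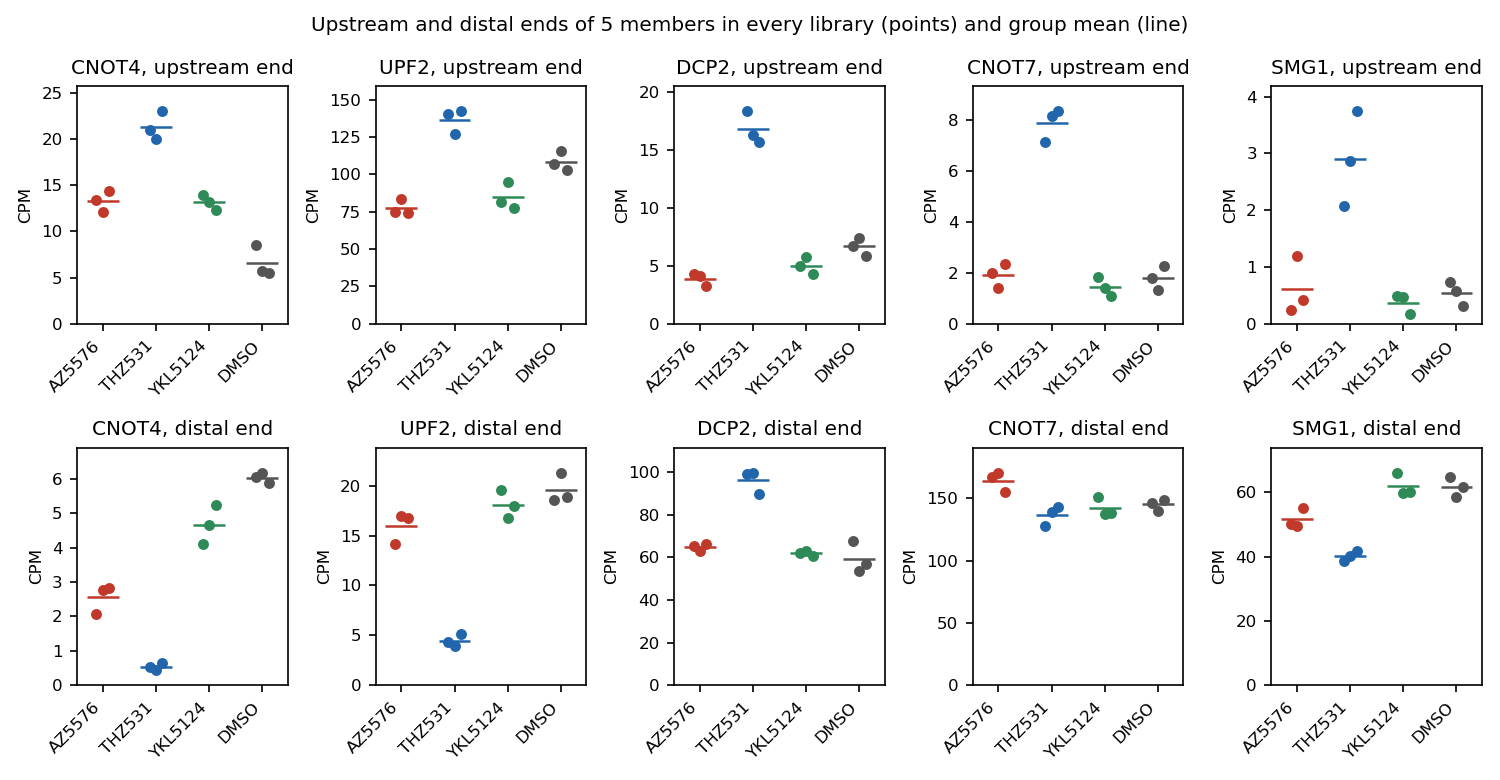
CPM after TMM scaling (y axes, each from 0) at an upstream end (top) and the distal end (bottom) of CNOT4, UPF2, DCP2, CNOT7 and SMG1 in each of the 12 libraries (points, 3 per treatment, with the group mean as a line), in the order AZ5576, THZ531, YKL5124 and DMSO. THZ531 is the highest group at every upstream end shown, and at the distal ends of CNOT4, UPF2 and SMG1 it is the lowest.

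Of 191 stretches of the 37 genes tested, only those of transcripts with 1 stretch were placed, by the same rule as for all genes. Among these, 70 stretches of 26 genes ended at least 1 kilobase upstream of the most distal coding end. Stretches of EXOSC7 that ended farther downstream, 3 of them called lower under THZ531, were not placed. Under THZ531, 19 upstream stretches, in 9 genes, were called higher, against 29.9% of all upstream stretches, and 16, in 9 genes, lower, against 20.4%. Of 73 stretches at the distal ends, meaning within 1 kilobase of the most distal coding end, 12 were higher and 31 lower, against 27.6% and 32.8%. The share of upstream stretches that rose was therefore near that of all genes. Under AZ5576, 5 upstream stretches were higher and 12 lower, against 7.33% and 17.6%, and at the distal ends 1 was higher and 23 lower, against 16.8% and 19.5%. Under YKL5124, 5 upstream stretches were higher and 6 lower, against 3.01% and 7.36%, and at the distal ends 0 were higher and 14 lower, against 3.77% and 11.4%. Stretches of a gene can overlap and share reads, so their number is not a number of separate measurements.

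Tested directly, THZ531 differed from AZ5576 in 18 of the 37 genes, where 55.0% of all genes tested differed. It was lower in 12, against 27.8% of all genes tested, and higher in 6, against 27.1%. SMG6 (-1.61, SE 0.20), SMG9 (-1.17, SE 0.15), XRN1 (-0.86, SE 0.13), EXOSC4 (-0.62, SE 0.12) and CNOT2 (-0.54, SE 0.11) had the largest negative log2 differences. UPF2 (0.83, SE 0.08), CNOT4 (0.66, SE 0.13) and DCP2 (0.56, SE 0.08) had the largest positive ones, but at the most distal coding ends UPF2 and CNOT4 were lower under THZ531, by 1.79 and 2.174. DIS3 was lower under THZ531 than under AZ5576 (-0.29, SE 0.07), a call lost with all stretches summed (-0.092). SMG8 differed by 0.13 (SE 0.14, adjusted p = 0.453) and EXOSC6 by 0.12 (SE 0.06, adjusted p = 0.113), neither called.

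Against YKL5124, THZ531 differed in 21 genes (background 61.0%). It was lower in 13 (background 30.5%) and higher in 8 (background 30.5%). SMG6 (-1.69, SE 0.20), SMG9 (-1.57, SE 0.14), EXOSC4 (-1.04, SE 0.11), XRN1 (-0.93, SE 0.13) and SMG8 (-0.83, SE 0.12) led the falls, and CNOT4 (0.70, SE 0.13), UPF2 (0.69, SE 0.08) and DCP2 (0.64, SE 0.08) the rises. At the most distal coding ends CNOT4 and UPF2 were again lower, by 3.09 and 1.98, and the UPF2 call was lost with all stretches summed (0.099). Without THZ531 replicate 3, 5 rather than 8 genes were higher.

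AZ5576 and YKL5124 differed in 8 genes (background 15.8%). AZ5576 was lower in 6 (background 9.60%) and higher in 2 (background 6.23%). The lower genes were SMG8 (-0.96, SE 0.13), DCP1A (-0.69, SE 0.14), EXOSC4 (-0.43, SE 0.10), SMG9 (-0.40, SE 0.12), SMG1 (-0.26, SE 0.08) and EXOSC6 (-0.22, SE 0.06), and the higher ones DIS3 (0.38, SE 0.07) and CNOT7 (0.21, SE 0.06). The SMG9 call was lost without AZ5576 replicate 1 (-0.29), YKL5124 replicate 2 (-0.34) or YKL5124 replicate 3 (-0.39), and also with all stretches summed (-0.27) or only the 6 libraries compared (-0.40). The DIS3 call was lost with the fly scaling (0.26). The SMG1 call was lost without AZ5576 replicate 1 (-0.23) or YKL5124 replicate 1 (-0.21). The EXOSC6 call was lost without AZ5576 replicate 3 (-0.21) or YKL5124 replicate 2 (-0.21). The CNOT7 call was lost without AZ5576 replicate 1 (0.19), AZ5576 replicate 2 (0.18), YKL5124 replicate 2 (0.18) or YKL5124 replicate 3 (0.19), so 1 gene rather than 2 was higher without each of these libraries. It was also lost under 6 of 13 other settings. UPF2 on its upstream stretch (-0.14, SE 0.08) and SMG5 (0.03, SE 0.11) were not called.

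**Figure D4:**
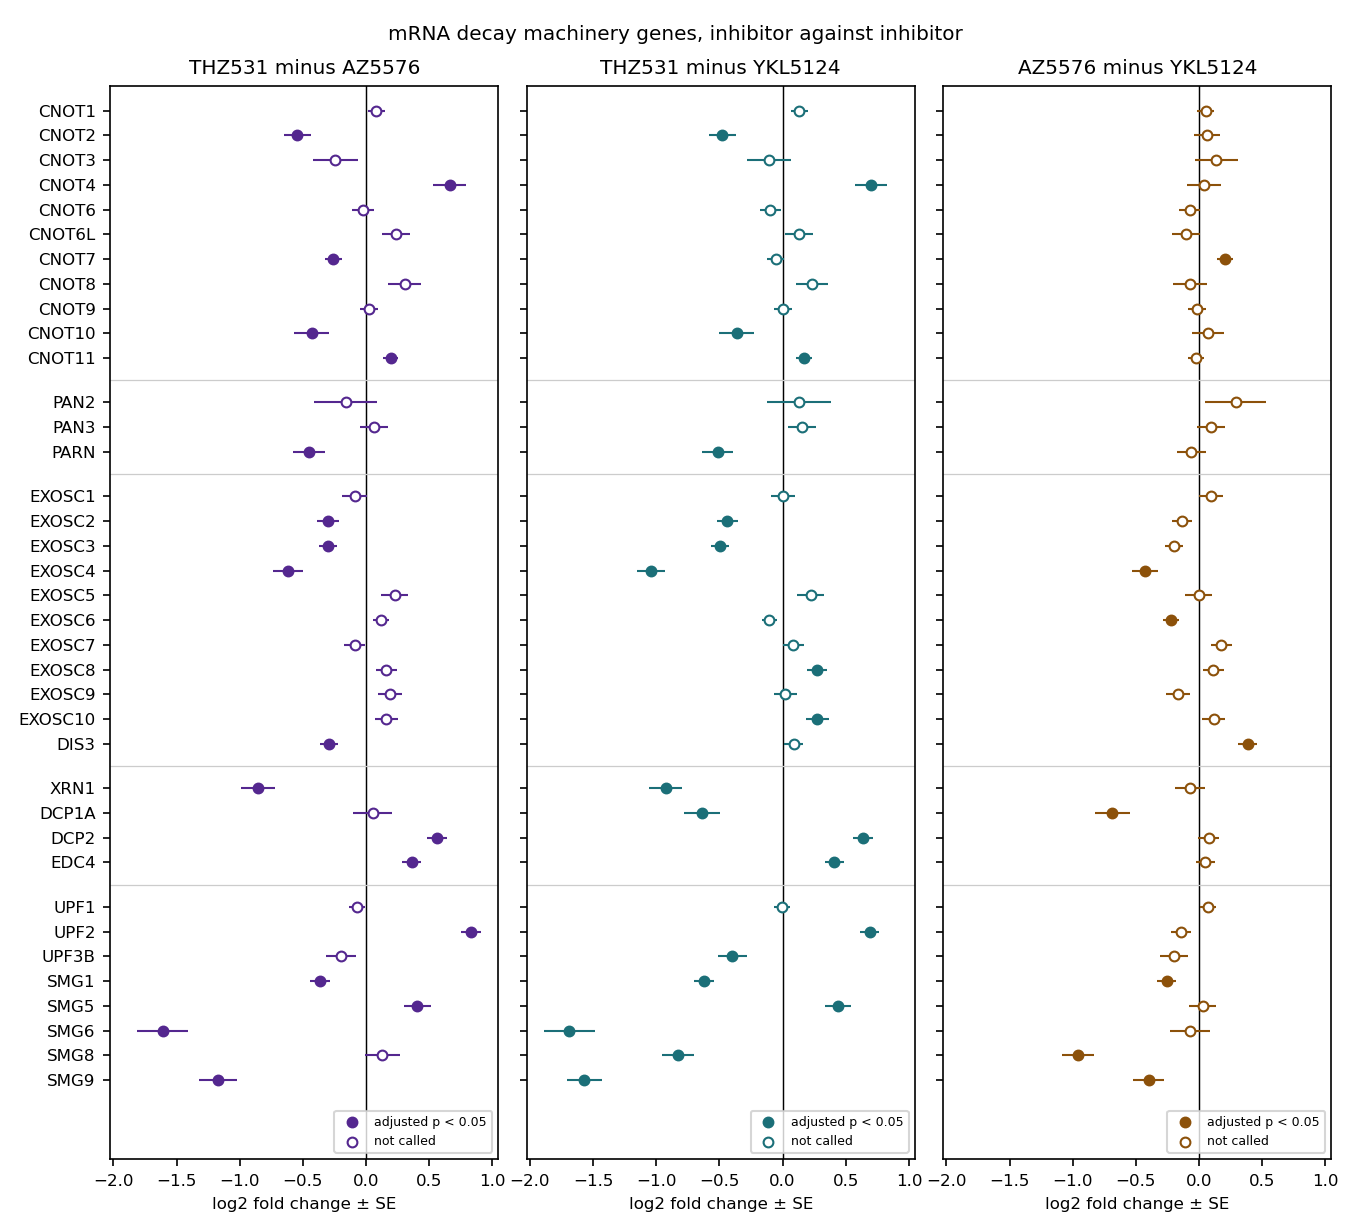
Log2 fold change (x axis) with its standard error (bars) of each of the 37 genes (rows, grouped by machine) for THZ531 over AZ5576, THZ531 over YKL5124 and AZ5576 over YKL5124, 3 libraries per group. Filled points passed an adjusted p of 0.05; SMG6 lies at -1.61 and -1.69 in the THZ531 panels and at -0.08 between AZ5576 and YKL5124.

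Of 62 further genes of these pathways, 61 were tested. Under AZ5576 16 rose and 17 fell, under THZ531 23 rose and 19 fell, and under YKL5124 4 rose and 11 fell, with medians of 0.01, 0.06 and 0.0033. Rises made up 26.2%, 37.7% and 6.56% of them under AZ5576, THZ531 and YKL5124, against 18.6%, 30.4% and 7.25% of all genes tested. Falls made up 27.9%, 31.1% and 18%, against 23.1%, 32.9% and 13.5%. The largest falls under AZ5576 were in PELO, which rescues stalled ribosomes (-1.82, SE 0.26), the decapping coactivator PNRC1 (-1.75, SE 0.17) and DCP1B, a paralogue of DCP1A (-1.61, SE 0.47). The DCP1B call was lost without AZ5576 replicate 3 (-1.11) and at the most distal coding end (-0.73). HBS1L, the partner of PELO, had the largest rise (0.93, SE 0.09), before the poly(A) binding proteins PABPN1 (0.37, SE 0.06) and PABPC1 (0.36, SE 0.06), whose calls were lost with the fly scaling (0.17 and 0.16).

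Under THZ531 the largest falls were in the uridylyltransferase TUT7 (-2.74, SE 0.24), the translational repressor EIF4ENIF1 (-2.68, SE 0.19) and TNRC6C (-2.05, SE 0.11), which brings CCR4-NOT to microRNA targets. The largest rises were in the exosome cofactors RBM7 (0.76, SE 0.18) and C1D (0.73, SE 0.10) and in NBAS (0.73, SE 0.17). NBAS was at -0.16 when its stretch was chosen on DMSO libraries alone, and the RBM7 call was lost with the fly scaling (0.41). Under YKL5124 PELO (-0.87, SE 0.23), the poly(A) polymerase TENT4A (-0.87, SE 0.14) and PNRC2 (-0.75, SE 0.09), a decapping coactivator, fell most. HBS1L (0.75, SE 0.09), TNRC6B (0.48, SE 0.06) and the release factor ETF1 (0.24, SE 0.06) rose most, and the ETF1 call was lost with the fly scaling (0.17). The last exons of PABPC1, PABPN1 and TNRC6C overlap other counted genes.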

How the data were processed

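The authors deposited raw read counts, not normalised, for 295100 stretches of human and fly transcripts in 12 QuantSeq forward 3′ end libraries. The submitters' processing notes name edgeR 3.32.1 and bcl2fastq 2.17.1.14, then Trim Galore 0.6.5, with hg38 and dm6 as builds. Aligner, counter, annotation and strand setting were not given in the sources used here.

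Stretches were named through GENCODE v29 (GRCh38). The 5197 human stretches it did not name took 0.655% to 0.719% of counts in each library and did not enter library sizes or tests. The stretch with the highest total stood for a gene, and 94 genes with the same counts as another in every library were dropped. Replicates of a group differed by a chi-square per gene of 1.73 to 5.00, so each was kept as its own sample. A single edgeR 4.0.16 quasi-likelihood fit (R 4.3.3, limma 3.58.1) used treatment group alone over the 12 libraries, with TMM factors and a minimum count of 10 in filterByExpr. P-values were adjusted by the Benjamini-Hochberg method over 15831 genes. Standard errors came from dividing the absolute log2 fold change by the square root of F. The fit was tested on simulated data. Alternatives were DESeq2 1.42.0, scaling by RLE, upper quartile, library size or fly counts, other filters and choices of stretch, a replicate block, only the 6 libraries compared, and leaving out each library. Counts without molecular identifiers are not independent molecules, so errors rest on the spread between libraries.

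The members and lists were chosen with earlier results of these data known. Values of every library are given for nuclease, helicase and kinase genes and, in each machine and each comparison with DMSO, for the 2 called genes with the largest change each way, and of further pathway genes the 3 largest called changes each way are named.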

Additional observations from a re-analysis of the deposited data

How the results depend on the processing

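Of 2880 log2 fold changes of single genes under other settings, 74 lost a call, 86 gained one and 31 turned round, and of 2664 with a library left out, 61 lost a call, 16 gained one and 0 turned round, where a value counts as turned only if it was called before or after. The values that turned and the counts of the 37 genes that moved follow. Scaled to the fly spike-in, CNOT7 under AZ5576 turned to -0.019, and under THZ531 EXOSC5 turned to -0.0075, EXOSC8 to -0.16, EXOSC10 to -0.12, EDC4 to -0.043 and UPF2 to -0.028 against DMSO. Against YKL5124 the same scaling turned THZ531 values to -0.29 for CNOT9, -0.13 for CNOT11, -0.025 for EXOSC8 and -0.028 for EXOSC10. It left 1 gene higher under AZ5576 and 2 under THZ531 against DMSO, 3 under THZ531 against AZ5576, 3 under THZ531 against YKL5124 and 0 under AZ5576 against YKL5124. Over all genes tested, 10.3%, 13.2%, 29.8%, 20.2% and 7.48% of calls were then higher, in that order. After TMM these shares were 44.7%, 48.0%, 49.4%, 50.0% and 39.4%. With library size alone, THZ531 values turned to -0.15 for CNOT1, -0.086 for EXOSC8 and -0.040 for EXOSC10 against DMSO, and to -0.26 for CNOT9, -0.10 for CNOT11, -0.27 for EXOSC1, -0.25 for EXOSC9 and -0.18 for DIS3 against YKL5124. It gave 2 genes higher under AZ5576 and 2 under THZ531 against DMSO, 3 higher and 21 lower under THZ531 against YKL5124, and 1 higher and 10 lower under AZ5576 against YKL5124. Over all genes tested, 21.9%, 23.2%, 25.3% and 10.3% of calls were then higher, in that order.

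With all stretches of a gene summed, CNOT4 turned to -0.11 under AZ5576 and UPF2 to -0.17 under THZ531 against DMSO, and CNOT4 to -0.30 under AZ5576 against YKL5124. The sum left 2 genes higher under AZ5576 and 0 under YKL5124 against DMSO, and 1 under AZ5576 against YKL5124. Of all calls, 42.7%, 32.5% and 36.5% were then higher, against 44.7%, 34.9% and 39.4% in the main fit. With the most distal coding end, CNOT4 turned to -1.26 under AZ5576, -3.43 under THZ531 and -0.34 under YKL5124, UPF2 to -2.09 and EXOSC9 to 0.23 under THZ531 against DMSO. Between inhibitors that end gave -2.174 for CNOT4 and -1.79 for UPF2 under THZ531 against AZ5576, -3.09 and -1.98 under THZ531 against YKL5124, and -0.91 for CNOT4 under AZ5576 against YKL5124. It left 0 genes higher under YKL5124 against DMSO and 10 under THZ531 against AZ5576. Of all calls, 34.4% and 49.6% were then higher, against 34.9% and 49.4% in the main fit. With every stretch tested on its own, 13562, 24560 and 5838 stretches were called under AZ5576, THZ531 and YKL5124 against DMSO, 21262 under THZ531 against AZ5576, 23482 under THZ531 against YKL5124 and 4256 under AZ5576 against YKL5124, where more features were tested, with 2 genes higher under AZ5576 against DMSO and 1 against YKL5124. Without a low-count filter 2 genes rose under AZ5576, with only the 6 libraries compared 2 rose under AZ5576 against DMSO and 1 against YKL5124, and DESeq2 called 1 rise under AZ5576 against YKL5124. Of all calls, 41.0%, 43.0%, 33.3% and 33.2% were then higher, in that order. With every stretch on its own, 42.7% of calls were higher under AZ5576 against DMSO and 37.2% against YKL5124. The cause of these changes was not tested.

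Calls against DMSO were gained under THZ531 by CNOT3 and SMG5 (5 of 13 other settings each), CNOT11 (4 of 13) and UPF1 (3 of 13). Under YKL5124 EXOSC9 gained a call in 3 of 13, and under AZ5576 PAN2 did in 3 of 12. Other genes gained calls against DMSO under fewer settings. Calls between inhibitors not described above were also lost. For THZ531 against AZ5576 they were CNOT7 with all stretches summed (-0.13), EDC4 with the fly scaling (0.18), SMG5 with library size alone (0.24) or the fly scaling (0.22) and CNOT11 under 4 of 13 other settings, and for THZ531 against YKL5124 CNOT10, CNOT11, EXOSC8, EXOSC10, EDC4 and SMG5 under 1 to 4.

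Leaving out each library in turn gave these ranges of genes called. Under AZ5576 against DMSO, 2 to 4 were higher and 13 to 16 lower, with 5603 to 6743 of all genes called. Under THZ531 against DMSO, 4 to 7 were higher and 14 to 19 lower (9203 to 10222 of all genes). Under YKL5124 against DMSO, 1 was higher and 9 to 10 were lower (2584 to 3604). THZ531 against AZ5576 had 6 to 7 higher and 11 to 12 lower (7911 to 8976), THZ531 against YKL5124 5 to 8 and 12 to 14 (8788 to 9930), and AZ5576 against YKL5124 1 to 2 and 4 to 7 (1688 to 2750).

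The labels number the libraries 1 to 3 in each group. The correlation of same-numbered libraries' deviations from their group means was -0.10 to 0.07, and that of differently numbered ones -0.09 to 0.11. No shared effect of the number was seen, but this cannot tell whether equal numbers mark paired samples, which the labels do not say. With the replicate number as a block, 3 genes rose and 15 fell under AZ5576, 7 and 16 under THZ531, and 1 and 10 under YKL5124 against DMSO. The block gave 6 higher and 12 lower for THZ531 against AZ5576, 8 and 13 for THZ531 against YKL5124, and 2 and 6 for AZ5576 against YKL5124, with 6520, 9959, 3215, 8606, 9609 and 2431 of all genes called in that order of comparisons. It ended the calls of EXOSC1 under AZ5576 (0.24) and EXOSC9 under THZ531 (-0.21).

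Changes of PAN2, SMG6 and the distal CNOT4 end rest on few reads, and at such levels a difference that was not called was not detectable at this depth.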

Other observations

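The length of the gene differed widely among the 37 genes, from 2022 bases in EXOSC4 to 243933 bases in SMG6. Across the 37 genes, Spearman's rho between gene length and the log2 fold change under THZ531 was -0.05, and -0.31 with the most distal coding end counted. Across 11671 coding genes it was -0.15 on the stretch with the most reads, to be set beside the -0.05. No such value was computed for their most distal coding ends. Under AZ5576 rho was 0.22 across the 37 genes, 0.06 at their most distal coding ends and 0.10 across coding genes on the stretch with the most reads. Under YKL5124 these values were 0.35, 0.25 and 0.15. Genes are not independent replicates, and the fold changes share the same libraries. Among genes of at least 109.9 kilobases, CNOT2, CNOT4, UPF2, SMG1, SMG6, XRN1 and PARN fell under THZ531 at the most distal coding ends. CNOT1 and PAN3 did not. Among genes of at most 11.5 kilobases, EXOSC2, EXOSC4, EXOSC6 and SMG8 fell there. EXOSC5, EXOSC8 and EDC4 rose, and EXOSC1 was not called. These length limits were set after the values were seen.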
